A study of Saccharomyces cerevisiae with 6 samples.

Results

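The ATG genes of Saccharomyces cerevisiae encode the core machinery of autophagy. They were taken as every protein-coding feature whose gene name in the J2-RIP-seq table is ATG followed by a number and nothing else, which gave 28 of the 6316 protein-coding features and of the 15753 features in all. J2 is an antibody that binds double-stranded RNA, and RIP-seq is the sequencing of the RNA that an antibody pulls down. Total RNA of wild-type S288C yeast, grown at 25 °C with no further treatment, was incubated with J2. The RNA bound by the antibody (eluate) and the RNA left behind (unbound) were sequenced. By the study's methods, the RNA left after the first incubation met fresh J2 and beads once more before it was taken as unbound. Each fraction was represented by 3 libraries, and all 6 came from the same wild-type strain, so the comparison was between fractions and not between strains or treatments. The libraries held between 18645818 and 43141091 counts. A mock precipitation without antibody was not analysed here. All 28 genes passed the filter of a mean normalised count above 40.

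In autophagy a cell encloses cytoplasm, organelles or selected cargo in a double membrane, the autophagosome, and delivers it to the vacuole for digestion. The Atg1 kinase complex starts the process, vesicles carrying Atg9 and a phosphatidylinositol 3-kinase complex build the membrane, and a pair of ubiquitin-like proteins, Atg8 and Atg12, are conjugated to a lipid and to Atg5 as the membrane grows. Receptors such as Atg19 bring chosen cargo, in growing cells through the cytoplasm-to-vacuole targeting (Cvt) pathway. An mRNA can become double-stranded where an RNA from the opposite strand of its gene, an antisense RNA (asRNA), pairs with it, or where its own sequence folds back.

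In the J2 eluate the ATG mRNAs behaved as a group much like the other mRNAs, and were spread no more widely than these. The values were normalised counts, that is reads divided by a size factor per library, and the log2 fold change was eluate over unbound on log2(normalised count + 1). The 28 log2 fold changes ran from -3.06 for ATG8 to 0.74 for ATG19, with a median of -1.25 and an SD among genes of 0.981. The median over the 5724 protein-coding features above 40 was -1.39, with an SD among features of 1.37. In the 3 same-numbered pairs of libraries the ATG median was -1.30, -1.18 and -1.51, against -1.28, -1.42 and -1.44 for the protein-coding features. A call was an adjusted p under 0.05 in limma, over all 15753 features. By this rule 1 ATG gene was enriched (3.57%) and 21 were reduced (75%), where 8.0% of the protein-coding features were enriched and 74.4% reduced. Of all features above 40, 34.6% were enriched and 48.0% reduced. All 3 eluates lay below all 3 unbound libraries for 21 ATG genes and above them for 2, where 75.9% and 8.68% of the protein-coding features did so. The share of the ATG genes that were called was thus close to that of mRNAs at large in both directions.

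**Figure D1:**
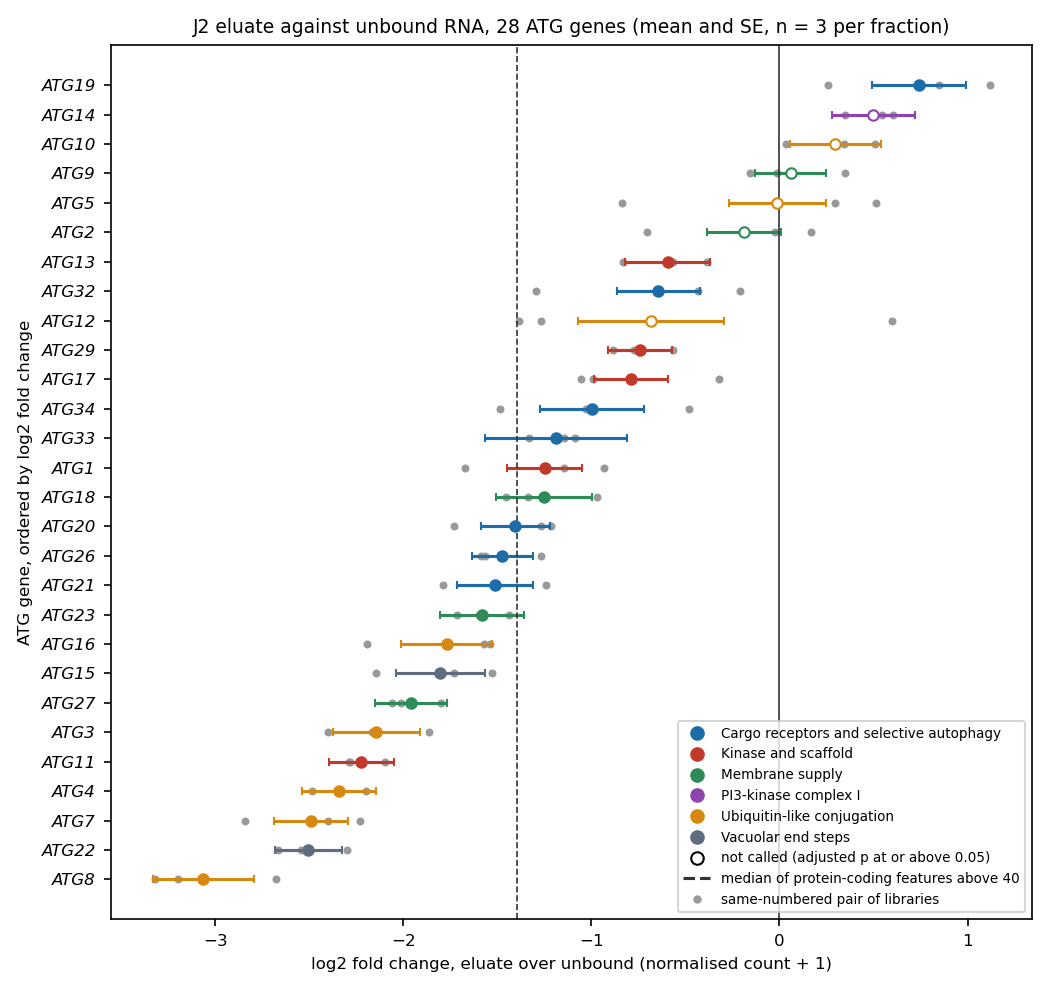
The log2 fold change (eluate over unbound) of each of the 28 ATG genes, with its SE (bars, n = 3 per fraction) and the value of each same-numbered pair of libraries (grey). Colours give the role of the gene, open circles mark the 6 genes with no call, and the dashed line is the protein-coding median of -1.39. The genes run from -3.06 for ATG8 to 0.74 for ATG19, on both sides of that line.

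The direction of a single gene depended on how the libraries were scaled. With the deposited size factors the median feature above 40 lay at -0.46, with TMM factors at -0.30, with total counts at 0.45 and with factors from protein-coding features alone at 0.85. The ATG median moved with it, from -1.25 to -1.09, -0.34 and 0.06, and stayed between 0.143 and 0.145 above the protein-coding median under the 4 scalings. The numbers of enriched and reduced ATG genes were 1 and 21, 2 and 19, 6 and 13, and 10 and 7. By total counts 21.5% of the protein-coding features were enriched and 48.8% reduced, and by protein-coding factors 32.8% and 37.6%. A scaling divides each library by a single factor and so shifts all genes nearly alike. The steady distance to the protein-coding median and the same order of the 28 genes (Spearman's rho of 1) follow from this and are no separate result. The place of a gene relative to that median thus does not depend on the scaling: 15 genes lay above it and 13 below. Called reduced under all 4 scalings were 7 genes, ATG8, ATG22, ATG7, ATG4, ATG11, ATG3 and ATG27, and called enriched under all 4 was ATG19.

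**Figure D2:**
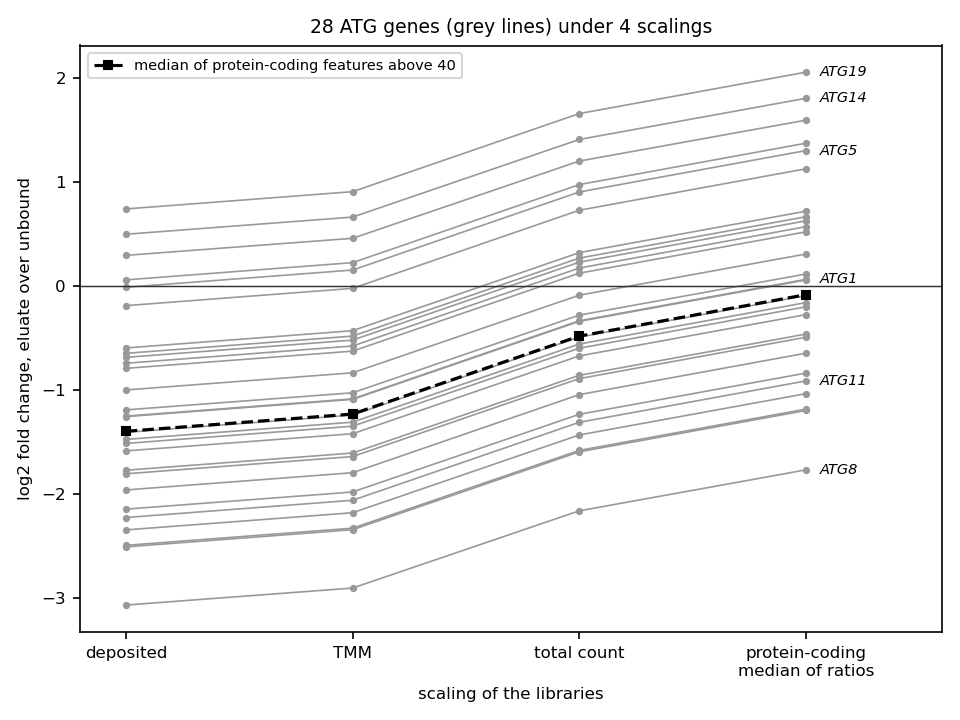
Log2 fold change (eluate over unbound) of the 28 ATG genes under 4 scalings of the libraries. Each grey line is a gene and the dashed line is the median of the protein-coding features above 40, which moved from -1.39 to -0.08. The lines run in parallel because a factor per library shifts all genes nearly alike, and 11 of them cross the zero line.

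The ubiquitin-like conjugation genes held both the most reduced member and some of the least reduced. ATG8 (chrII:79704-80767, minus strand) encodes the ubiquitin-like protein that is attached to phosphatidylethanolamine on the growing membrane. Its normalised counts were 296, 312 and 348 in the unbound libraries 1 to 3 and 31.5, 30.3 and 53.6 in the eluates 1 to 3. The fractions did not overlap, and the eluates were 8.36-fold lower, with a log2 fold change of -3.06 ± 0.269 (SE, n = 3 per fraction, limma adjusted p = 5.1e-06). Of the protein-coding features above 40, 7.77% had a lower value. ATG7 (chrVIII:445713-447882, plus strand), the activating enzyme for Atg8 and Atg12, had 529, 523 and 653 in the unbound libraries 1 to 3 and 112, 98.1 and 90.2 in the eluates 1 to 3. ATG4 (chrXIV:227320-229057, plus strand), the protease that trims Atg8 and releases it from lipid, had 518, 499.5 and 558 in the unbound libraries 1 to 3 and 101, 88.4 and 121 in the eluates 1 to 3. All eluates were again below all unbound libraries for both genes. Their log2 fold changes were -2.49 ± 0.195 (SE, n = 3 per fraction, limma adjusted p = 2.5e-06) and -2.34 ± 0.196 (SE, n = 3 per fraction, limma adjusted p = 3.7e-06). ATG3, the conjugating enzyme of Atg8, was reduced as well, at -2.14.

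Of the genes that make the Atg12-Atg5 conjugate, ATG7 was reduced as given above, while ATG12, ATG5 and ATG10 had no call with the deposited scaling. ATG12, the second ubiquitin-like protein, stood at -0.68 and was not called (limma, adjusted p = 0.136): its counts were 466, 461 and 374 in the unbound libraries 1 to 3 and 178, 191 and 567 in the eluates 1 to 3. Eluate 3 lay above every unbound library while eluates 1 and 2 lay below them, and without eluate 3 ATG12 was called reduced. ATG5 (chrXVI:271230-272466, plus strand), to which Atg12 is joined, had 670.0, 558 and 784 in the unbound libraries 1 to 3 and 822, 796 and 438 in the eluates 1 to 3. Here eluate 3 was the lowest of all 6 libraries and eluates 1 and 2 the highest, and the log2 fold change was -0.01 ± 0.259 (SE, n = 3 per fraction, limma adjusted p = 0.972). ATG10, the conjugating enzyme of Atg12, had 81.9, 88.6 and 63.1 in the unbound libraries 1 to 3 and 104, 90.8 and 90.2 in the eluates 1 to 3. Its eluates all lay above its unbound libraries, but the difference of 0.30 did not pass the test (limma, adjusted p = 0.289). ATG16, which binds the conjugate and brings it to the membrane, was reduced at -1.77. Of the 8 conjugation genes 5 were reduced (62.5%, against 74.4% of the protein-coding features) and 3 had no call, with a median of -1.96. Under total count and protein-coding scaling ATG5 and ATG10 were called enriched, and under the latter ATG16 lost its call.

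The 2 conjugating enzymes could be set against each other within each library, where scaling drops out. The log2 ratio of ATG10 to ATG3 was -2.30 ± 0.322 in the unbound libraries and 0.14 ± 0.354 in the eluates (SD, n = 3), a difference of 2.44. This pair was chosen after its values were seen, so no test is given. The ratio ran from -2.61 to -1.97 in the unbound libraries and from -0.24 to 0.47 in the eluates, so the fractions were separate. It was taken from counts and not per length, so that only its change between fractions can be read.

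**Figure D3:**
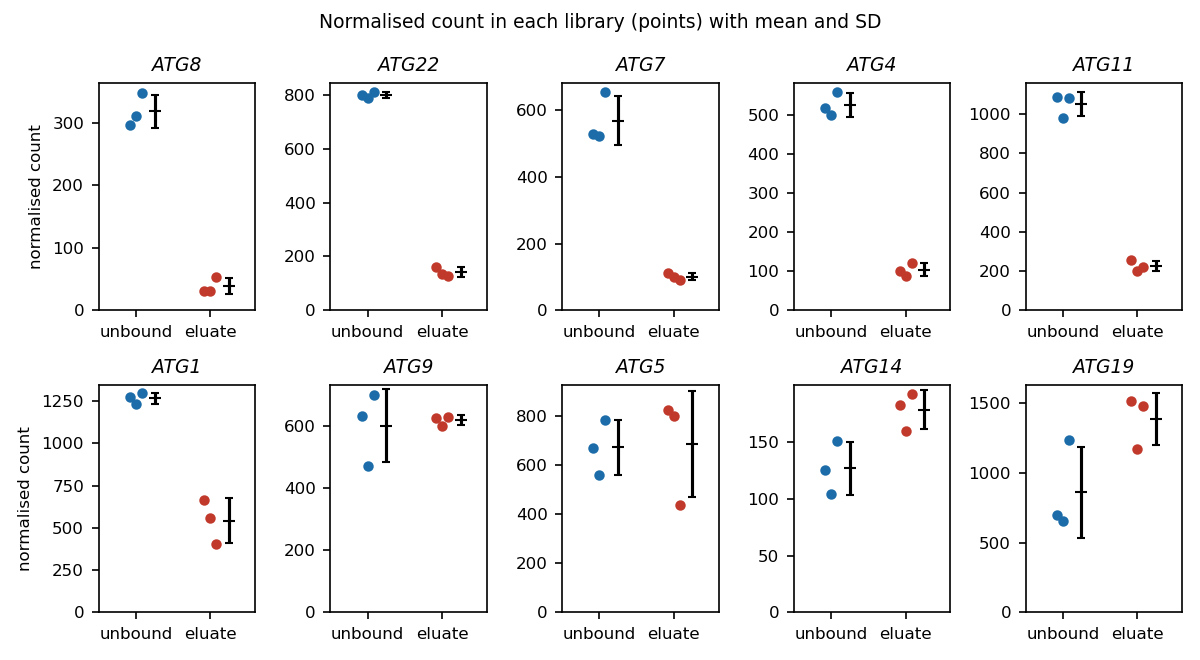
Normalised counts of 10 ATG genes in the 3 unbound (blue) and 3 eluate (red) libraries, with mean and SD (black), on axes that start at 0. ATG8, ATG22, ATG7, ATG4, ATG11 and ATG1 have every eluate below every unbound library, ATG9, ATG5 and ATG19 overlap, and ATG14 has every eluate above.

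The 5 genes of the kinase complex and its scaffold were reduced with the deposited scaling, where 74.4% of the protein-coding features were, from -2.22 to -0.59 with a median of -0.79. With total counts and with protein-coding factors ATG11 alone stayed reduced and ATG1 lost its call, and with the latter ATG17, ATG29 and ATG13 were called enriched. ATG1 (chrVII:159497-163205, plus strand) encodes the kinase that starts autophagosome formation. Its counts were 1273, 1233 and 1296 in the unbound libraries 1 to 3 and 668, 558 and 406 in the eluates 1 to 3. The fractions were separate, the SD was 32.1 in the unbound libraries and 131 in the eluates, and the log2 fold change was -1.25 ± 0.201 (SE, n = 3 per fraction, limma adjusted p = 3.1e-04), 0.146 above the protein-coding median. ATG11 (chrXVI:660937-664746, minus strand), the adaptor that links cargo receptors to the kinase in selective autophagy, had 1089.9, 981 and 1085 in the unbound libraries 1 to 3 and 254, 199.8 and 222 in the eluates 1 to 3. At -2.22 ± 0.171 (SE, n = 3 per fraction, limma adjusted p = 2.3e-06) it was the most reduced of the 5. ATG17 and ATG29, scaffold subunits used in starvation, had -0.79 and -0.74, and ATG13, the regulatory subunit that the nutrient-sensing kinase TORC1 phosphorylates, had -0.59 (limma, adjusted p = 0.0366). ATG13 did not pass when unbound 1, unbound 3 or eluate 2 was set aside.

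Among the genes that supply membrane, ATG9 and its partners parted. ATG9 (chrIV:184896-188176, plus strand) encodes the membrane protein of the vesicles from which the autophagosome grows. It had 631, 471 and 701 in the unbound libraries 1 to 3 and 627, 601 and 628 in the eluates 1 to 3. Eluate and unbound libraries overlapped and the eluates varied little, with an SD of 15.5, and the log2 fold change was 0.06 ± 0.188 (SE, n = 3 per fraction, limma adjusted p = 0.781). This lay 1.45 above the protein-coding median. ATG2, which transfers lipid to the growing membrane, also had no call at -0.19, whereas ATG27 (-1.96) and ATG23 (-1.58), both needed for Atg9 traffic, were reduced. ATG27 had the highest level of the 28 genes per length in the unbound fraction, 1990 normalised counts per kilobase, and ATG10 the lowest, 82.4. ATG18 (chrVI:194696-196557, plus strand), which binds phosphatidylinositol 3-phosphate and acts with Atg2, had 783, 624 and 1128 in the unbound libraries 1 to 3 and 286, 317 and 446 in the eluates 1 to 3. Its fractions were separate, and its log2 fold change was -1.25 ± 0.254 (SE, n = 3 per fraction, limma adjusted p = 0.00141). Of the 5 genes 3 were reduced (60%, against 74.4% of the protein-coding features) and 2 had no call. Under total count and protein-coding scaling ATG9 and ATG2 were called enriched and ATG18 lost the call, as ATG23 did under the latter.

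ATG14 (chrII:492891-494202, minus strand), the subunit that sends the phosphatidylinositol 3-kinase complex to the site of autophagosome formation, was among the members highest in the eluate. It had 125, 105 and 151 in the unbound libraries 1 to 3 and 183, 159 and 192 in the eluates 1 to 3. Every eluate lay above every unbound library, yet the log2 fold change was 0.50 ± 0.221 (SE, n = 3 per fraction, limma adjusted p = 0.0643) and so not called. With the replicate number as a block the adjusted p was 0.0424 in limma and ATG14 became another enriched gene. Over all alternatives its adjusted p ran from 3.1e-05 to 0.198.

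Of the 7 cargo and selective autophagy genes 6 were reduced with the deposited scaling, and ATG19 was enriched, where 74.4% and 8.0% of the protein-coding features were. With protein-coding scaling none of the 6 stayed reduced: ATG32 was called enriched, and ATG20, ATG21, ATG26, ATG33 and ATG34 lost the call. ATG19 (chrXV:168434-170282, plus strand) encodes the receptor of the Cvt pathway, which binds the precursor of aminopeptidase I and alpha-mannosidase. It had 695, 652 and 1235 in the unbound libraries 1 to 3 and 1512, 1173 and 1479 in the eluates 1 to 3. Eluates 1 and 3 were above every unbound library, but eluate 2 was below unbound 3, which was the highest of its fraction. The eluates were 1.67-fold higher, with a log2 fold change of 0.74 ± 0.25 (SE, n = 3 per fraction, limma adjusted p = 0.0216), and 93.2% of the protein-coding features above 40 had a lower value. Leaving out unbound 1, unbound 2, eluate 1 or eluate 3 ended the call, at log2 fold changes of 0.62, 0.57, 0.68 and 0.69, and over all alternatives the adjusted p ran from 2.3e-05 to 0.0932.

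ATG34, a paralogue of ATG19 that lies next to it on the same strand of chromosome XV and serves as a receptor for alpha-mannosidase in starvation, was reduced at -0.997 ± 0.277 (SE, n = 3 per fraction, limma adjusted p = 0.0085). Its counts were 141, 195 and 295 in the unbound libraries 1 to 3 and 101, 95.1 and 105 in the eluates 1 to 3. Within a library the log2 ratio of ATG19 to ATG34 was 2.03 ± 0.278 in the unbound fraction and 3.77 ± 0.142 in the eluate (SD, n = 3), a difference of 1.74. This pair too was chosen after its values were seen and has no test. Every 50-base window of both features was unique in the genome, as it was for the other 26 genes, so reads of the pair could be told apart.

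ATG32 (chrIX:73773-76037, minus strand), the receptor on mitochondria for mitophagy, had 473, 469 and 668 in the unbound libraries 1 to 3 and 409, 348 and 272 in the eluates 1 to 3. At -0.65 ± 0.221 (SE, n = 3 per fraction, limma adjusted p = 0.0233) it was called reduced, but not without unbound 3, eluate 2 or eluate 3. ATG33, a mitochondrial protein that also acts in mitophagy, had -1.19 (limma, adjusted p = 0.0164), with unbound 3 and eluate 3 each the highest library of its fraction, at 347 and 163. It did not pass without unbound 3, eluate 1 or eluate 2. The sorting nexin ATG20, the phosphoinositide-binding ATG21 and ATG26, a sterol glucosyltransferase, had -1.40, -1.51 and -1.47, close to the protein-coding median. At the vacuole, ATG22 (chrIII:54661-56633, minus strand), a membrane protein linked to the export of amino acids after digestion, had 801, 790.1 and 812 in the unbound libraries 1 to 3 and 162, 134 and 127 in the eluates 1 to 3. The counts of each fraction lay close together, and its log2 fold change of -2.51 ± 0.177 (SE, n = 3 per fraction, limma adjusted p = 1.4e-06) was the second lowest. ATG15, the lipase that opens autophagic bodies, had -1.80. Both vacuolar genes were thus reduced, as 74.4% of the protein-coding features were, ATG15 not with protein-coding scaling.

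The lncRNAs opposite ATG genes that passed a filter on level were mostly higher in the eluate, also where the ATG gene was lower. A partner was a lncRNA feature on the other strand with a mean above 40 that overlapped at least 0.5 of either feature. The classes were numbered antisense intervals, Xrn1-sensitive unstable transcripts (XUTs), stable unannotated transcripts (SUTs) and cryptic unstable transcripts (CUTs). There were 10 partners of 9 ATG genes, of which 7 were enriched, 0 reduced and 3 without a call, where 73.1% of the lncRNA features above 40 were enriched and 10.5% reduced. Moreover, 8 of the 10 had all eluates above all unbound libraries, as did 74.2% of lncRNA features. At an unadjusted p under 0.05 and by DESeq2 and edgeR the count reduced was also 0. The share of enriched partners was close to that of lncRNAs at large. The ATG genes with a partner had a median log2 fold change of -0.65 and those without one -1.47, with ranges of -2.49 to 0.74 and -3.06 to 0.30 that overlapped nearly throughout. This difference was not tested. Without the limits on level and overlap there were 36 opposite lncRNAs, of which 19 were enriched, 1 was reduced and 16 had no call. Of the 36, 23 had a mean at or below 40, and 9 of those 23 were enriched. The share over all lncRNA features without the limit on level was not computed.

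The values of the 2 strands rest on how reads were assigned to them. The methods name a TruSeq RNA Sample Prep Kit v2, which in its standard form does not mark strand, and whether strand was used in counting is not given in the sources used here. In the deposited counts the strands differed: ATG7 lies wholly inside antisense5087 and the 2 had about 568 and 22.8 counts on average in the unbound libraries, while CUT027 and XUT_2F-197, which overlap on 1 strand, both held counts. Counting without strand would have given each read of ATG7 to both features or to neither. How many reads of one strand were assigned to the other was not tested.

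To show what the 2 strands share, these sequences are coding bases of the mRNA strand, read from the R64 reference (the sacCer3 build), where an ATG mRNA and an RNA of the other strand could pair. In the lines against a lncRNA, capitals mark the bases that the opposite lncRNA covers. For ATG14 and ATG5 the 60 bases are centred on the end of the lncRNA, and for ATG18, ATG4 and ATG19, whose coding sequences are covered throughout, they are the middle of the coding sequence. For ATG29 they are the last coding bases. The SET6 feature covers that whole line, and its 24 capitals mark the bases that are coding in both genes.
ATG14 against CUT027, chrII:493857-493916, minus strand: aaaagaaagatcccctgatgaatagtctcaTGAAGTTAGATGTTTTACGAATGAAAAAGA
ATG5 against antisense1298, chrXVI:271855-271914, plus strand: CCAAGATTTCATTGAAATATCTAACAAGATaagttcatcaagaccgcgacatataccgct
ATG18 against CUT578, chrVI:195534-195593, plus strand: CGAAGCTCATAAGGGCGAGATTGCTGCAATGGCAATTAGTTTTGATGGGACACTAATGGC
ATG4 against antisense912, chrXIV:228083-228142, plus strand: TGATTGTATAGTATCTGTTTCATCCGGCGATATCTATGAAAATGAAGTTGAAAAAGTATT
ATG19 against antisense2466, chrXV:169321-169380, plus strand: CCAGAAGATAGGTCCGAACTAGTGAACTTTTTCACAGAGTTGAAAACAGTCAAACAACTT
ATG29 against SET6, chrXVI:237926-237979, plus strand: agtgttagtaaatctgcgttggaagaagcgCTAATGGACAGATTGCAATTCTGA

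The ratio of lncRNA to gene per kilobase set the 2 features against each other within each library, free of scaling. It averaged each feature over its whole span, and several lncRNA intervals run far beyond the gene. Which strand was the more abundant over the shared bases can therefore not be read from it. In 8 of the 10 pairs every eluate ratio lay above every unbound ratio. A rise of this kind was common to the series and not particular to ATG genes. The median log2 fold change was 1.82 over lncRNA features above 40 and -1.39 over protein-coding features. The share over all pairs of a lncRNA and an mRNA was not computed. The largest shift was at ATG4, which lies wholly inside antisense912, an interval that also faces another mRNA. The ratio was 0.0365, 0.0225 and 0.0484 in the unbound libraries and 1.34, 1.31 and 0.908 in the eluates. Averaged over its whole interval, antisense912 was thus scarce in the unbound fraction and, per kilobase, above ATG4 in 2 of the 3 eluates. The counts of antisense912 were 29.8, 17.7 and 42.5 in the unbound libraries 1 to 3 and 213, 182 and 173 in the eluates 1 to 3, with a log2 fold change of 2.69 ± 0.327 (SE, n = 3 per fraction, limma adjusted p = 4.6e-05). ATG7, also wholly inside its partner, moved in the same way: the ratio of antisense5087 to ATG7 was 0.00937, 0.0226 and 0.0131 unbound and 0.259, 0.283 and 0.565 in the eluates. The counts of antisense5087, which faces 4 mRNAs, were 13.4, 31.9 and 23.2 in the unbound libraries 1 to 3 and 78.6, 75.1 and 138 in the eluates 1 to 3, and its log2 fold change was 2.07 ± 0.387 (SE, n = 3 per fraction, limma adjusted p = 8.5e-04). Both genes were among the 5 most reduced ATG genes, while both partners, which passed the filter on level only through their eluates, were enriched. Both intervals also face other mRNAs, and whether their RNA was paired with ATG4 or ATG7 was not tested.

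**Figure D4:**
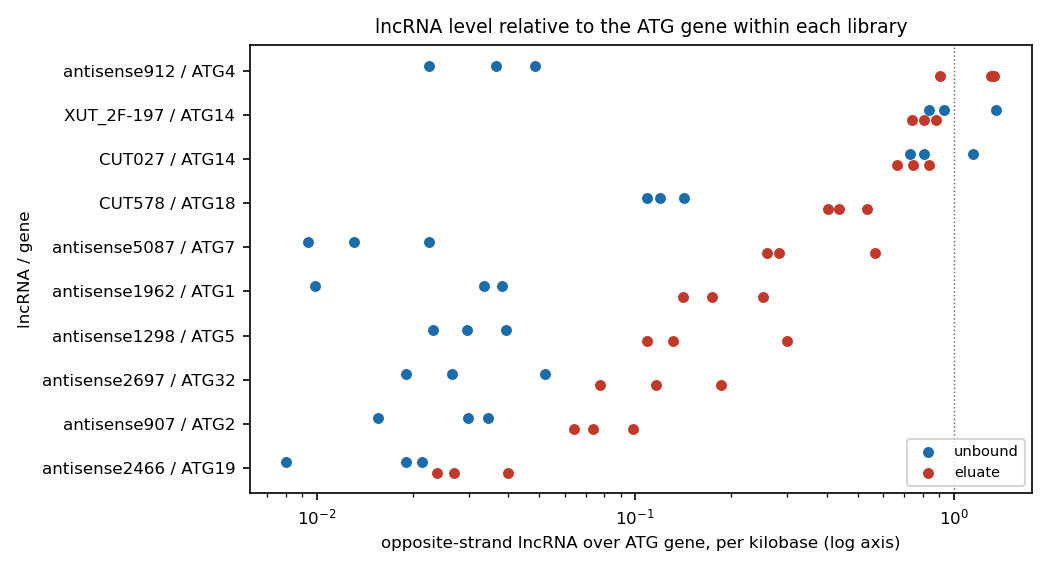
Level of each opposite-strand partner lncRNA relative to its ATG gene, per kilobase of each whole feature and on a log axis, in the 3 unbound (blue) and 3 eluate (red) libraries. The ratios of 8 pairs are higher in every eluate than in any unbound library, and those of CUT027 and XUT_2F-197 to ATG14 overlap near 1 (dotted line).

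At ATG5 and ATG18 the ratio of partner to gene shifted less than at ATG4 and ATG7. The ratio of antisense1298 to ATG5 was 0.0232, 0.0392 and 0.0297 unbound and 0.109, 0.132 and 0.299 in the eluates, and that of CUT578 to ATG18 was 0.142, 0.109 and 0.12 and 0.438, 0.402 and 0.535. Both ranges were separate between fractions. The counts of antisense1298 were 49.1, 69.1 and 73.5 in the unbound libraries 1 to 3 and 283, 331 and 413 in the eluates 1 to 3, at a log2 fold change of 2.41 ± 0.245 (SE, n = 3 per fraction, limma adjusted p = 1.4e-05). CUT578, whose counts were 110.2, 67.3 and 134 in the unbound libraries 1 to 3 and 124, 127 and 237 in the eluates 1 to 3, had 0.63 ± 0.337 (SE, n = 3 per fraction, limma adjusted p = 0.116), and it was called enriched with the replicate block and with TMM factors. Its fractions overlapped, while those of ATG18 did not.

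ATG14 was the exception in that the ratio of partner to gene, averaged over whole features, was near 1 in both fractions and overlapped between them. The ratio of CUT027 to ATG14 was 0.807, 1.15 and 0.731 unbound and 0.664, 0.835 and 0.743 in the eluates. CUT027 had 62.5, 74.4 and 68.3 in the unbound libraries 1 to 3 and 75.2, 82.4 and 88.5 in the eluates 1 to 3, with a log2 fold change of 0.26 ± 0.236 (SE, n = 3 per fraction, limma adjusted p = 0.339), so neither strand was called with the deposited scaling, and both were called enriched with total count or protein-coding scaling. XUT_2F-197 overlaps CUT027 on the same strand. It had 61.05, 74.4 and 65.7 in the unbound libraries 1 to 3 and 70.8, 73.3 and 80.9 in the eluates 1 to 3, at 0.16, so the pair is not 2 independent measurements. Beyond the partner rule, the intervals antisense370 and antisense369 reached into the start and the end of ATG14 and were enriched at 2.79 and 2.49. They shared only 267 of 3023 and 134 of 1605 bases with ATG14, and both also face other mRNAs. The unbound counts of antisense369 were low, at 5.96, 26.6 and 10.3 in libraries 1 to 3.

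ATG19 lies inside antisense2466, an interval of 11847 bases that overlaps 2 other features on its own strand, and of which this gene is 15.6%. Its counts were 95.3, 79.7 and 63.1 in the unbound libraries 1 to 3 and 262, 299 and 226 in the eluates 1 to 3, and at 1.72 ± 0.234 (SE, n = 3 per fraction, limma adjusted p = 1.0e-04) it was enriched. Per kilobase it reached only 0.0214, 0.0191 and 0.00798 of ATG19 in the unbound libraries and 0.027, 0.0397 and 0.0238 in the eluates. Among the 9 genes with a partner, the one enriched ATG mRNA also had the lowest partner ratio in the eluate. That ratio was averaged over all 11847 bases of the interval, so the level opposite ATG19 itself is not known. ATG32 faced antisense2697, with 35.7, 69.1 and 36.1 in the unbound libraries 1 to 3 and 90, 114 and 143 in the eluates 1 to 3 and a log2 fold change of 1.33 ± 0.328 (SE, n = 3 per fraction, limma adjusted p = 0.00445). The ratios of the 2 remaining partners, antisense1962 of ATG1 and antisense907 of ATG2, rose from a mean of 0.0272 to 0.189 and from 0.0266 to 0.0788. Among the 25 ATG genes with any opposite lncRNA, the count ratio of the most abundant one to the gene had a Spearman's rho of 0.195 with the log2 fold change, which shares the gene's counts with the ratio.

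Overlap with mRNAs of the other strand was common. Of the 28 genes 20 had an opposite mRNA feature, 15 of them reduced (75%, against 74.4% of the protein-coding features) and 5 without a call, at a median of -1.33. Many such overlaps involve a 3′ end segment of exactly 200 bases, with which 23 ATG features and 56.6% of the protein-coding features ended, so their length is partly an annotation rule. With longest segments alone, 14 genes overlapped an opposite mRNA. ATG29 and SET6 overlapped most, by 1459 bases that hold all of SET6, and SET6 was enriched at 0.90 ± 0.282 (SE, n = 3 per fraction, limma adjusted p = 0.0155) while ATG29 was reduced. ATG29 shared nearly all of its span with the same-strand feature Unit383, so their reads could be counted for both. ATG5 overlapped PPT2 by 533 bases, and PPT2, which transfers phosphopantetheine to a mitochondrial carrier protein, was enriched at 1.63 ± 0.208 (SE, n = 3 per fraction, limma adjusted p = 6.4e-05). PPT2 had 185, 168 and 183 in the unbound libraries 1 to 3 and 659, 609.8 and 427 in the eluates 1 to 3, so ATG5 met enriched RNAs from the other strand at both ends of its feature.

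Of the 21 opposite mRNAs 15 were themselves reduced, 2 were enriched (SET6 and PPT2) and 4 had no call, where 74.4% of the protein-coding features were reduced. ATG8 overlapped NUP170 by 325 bases, ATG12 overlapped PYC2 by 525, ATG10 overlapped FPS1 by 549 and ATG23 overlapped SEN1 by 477, and the log2 fold changes of those 4 mRNAs ran from -2.50 to -1.31. ATG9 overlapped NOP14 by 325 bases, ATG17 overlapped YLR422W by 829, ATG2 overlapped ZWF1 by 389 and ATG26 overlapped MDL1 by 397, with values from -3.05 to -1.42. The overlaps of ATG22 with GID7, ATG27 with PFD1, ATG3 with VPS27, ATG13 with PZF1, ATG11 with TAH18, ATG29 with MLH3 and ATG1 with TOS3 were between 37 and 469 bases, and these mRNAs were reduced too. ATG21 overlapped AIM43 by 433 bases, which had 0.14 and no call. ATG20, ATG16 and ATG34 overlapped YDL114W, YMR158W-B and YOL083C-A, whose means were 5.13, 6.04 and 9.55.

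**Figure D5:**
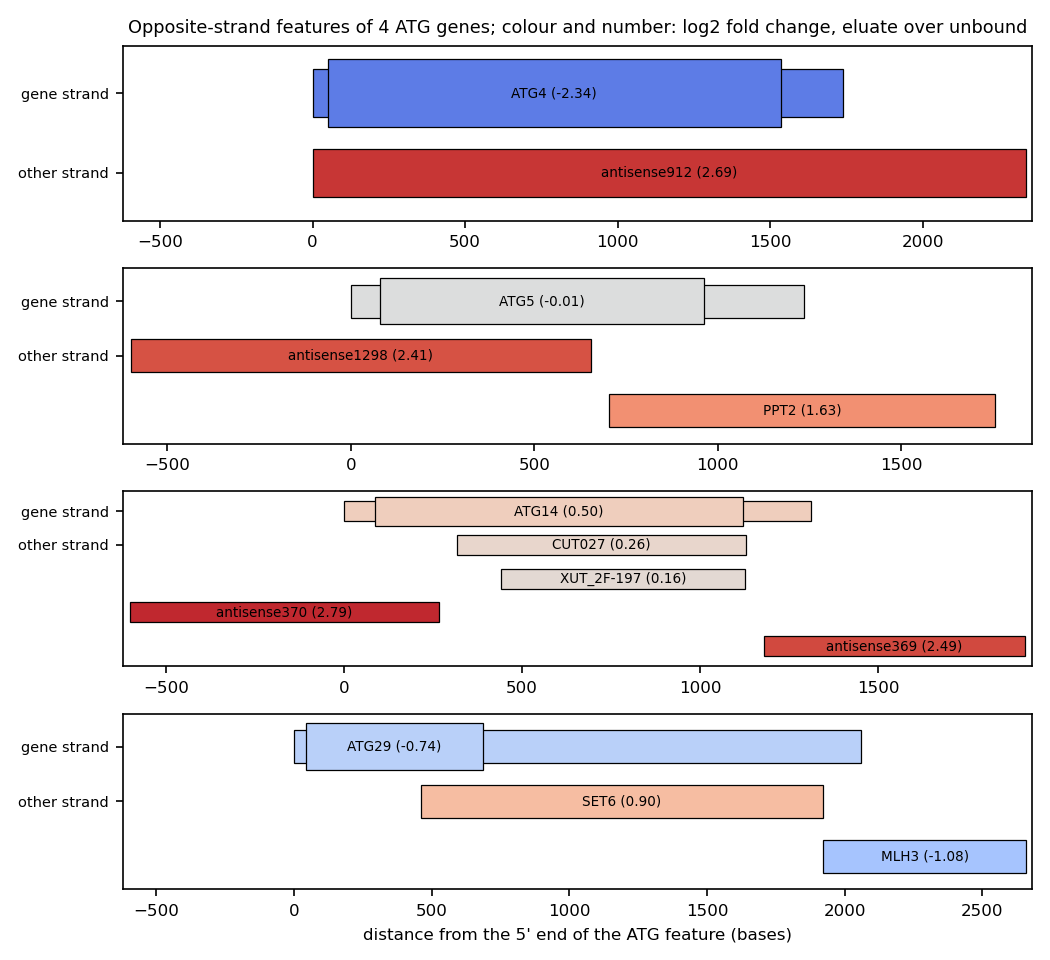
Maps of ATG4, ATG5, ATG14 and ATG29, to scale in bases from the 5′ end of each ATG feature, with the coding sequence as the taller box and the opposite-strand features below. Numbers and colours give the log2 fold change (blue lower, red higher in the eluate), from -2.34 for ATG4 to 2.79 for antisense370. Features that run further are drawn to 600 bases beyond the gene.

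Span, GC content and level had weak rank relations with the log2 fold change within the group. Over the 28 genes Spearman's rho was 0.00821 with the span, 0.0328 with GC content and -0.08 with the unbound level, as a description over genes of the same libraries. Over the 5724 protein-coding features above 40 it was 0.0401 with the span and -0.335 with the unbound level. The small group therefore does not show that level is without relation to the fold change. Inverted repeats, which could let an mRNA fold back, were searched in each coding sequence as a perfect arm whose reverse complement begins 3 to 100 bases further on. The perfect arms found were far shorter than the double strands that, by the study, J2 recognises. The search could thus not tell whether folded mRNA was bound, which was not tested. The longest arm had 6 to 11 bases, with a median of 8.5, against a median of 8 over 5215 protein-coding features, and its rho with the log2 fold change was 0.147. Arms of 11 bases, found in 5.20% of those coding sequences, occurred in ATG7, ATG9 and ATG20, that is in a strongly reduced gene, one without a call and one near the protein-coding median. The repeats of the first pair are shown with the arms in capitals.
ATG7, chrVIII:446984-447092, plus strand: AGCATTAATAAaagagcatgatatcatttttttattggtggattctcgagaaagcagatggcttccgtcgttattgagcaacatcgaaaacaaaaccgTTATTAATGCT
ATG9, chrIV:186467-186587, plus strand: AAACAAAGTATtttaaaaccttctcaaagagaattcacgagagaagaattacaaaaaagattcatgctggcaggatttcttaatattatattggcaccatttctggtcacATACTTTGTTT

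Of 35 autophagy genes without an ATG name, 28 were reduced (80%, near the 74.4% of the protein-coding features), 0 were enriched (against 8.0%, and also 0 at an unadjusted p under 0.05 and by DESeq2 and edgeR) and 7 had no call, with a median of -1.17. The 7 genes of TORC1 and nutrient signalling were all among the reduced with the deposited scaling, as 74.4% of the protein-coding features were, from -1.87 for the kinase SCH9 to -0.52 for KOG1, a subunit of TORC1. Of 13 genes for fusion with the vacuole 11 were reduced, such as VTI1 and VAM7, which encode SNARE proteins, at -2.99 and -2.64, and in the tethering complex VPS11, VPS16, VPS18 and VPS41 were reduced, from -1.23 to -0.88, while VPS33 and VPS39 had -0.09 and -0.41 without a call. YPT1, a Rab GTPase of Golgi traffic, was the lowest at -3.18. The cargo of the Cvt pathway had no call: LAP4, the aminopeptidase carried by Atg19, stood at -0.41 and AMS1, alpha-mannosidase, at 0.01, whereas the vacuolar proteases PEP4, PRB1 and PRC1 were reduced at -1.38, -1.87 and -1.55. In the phosphatidylinositol 3-kinase complex that holds Atg14, VPS34 and VPS30 were reduced at -1.17 and -1.02, and VPS15 stood at -0.25 without a call. Under protein-coding scaling the list held 12 enriched and 9 reduced genes, where 32.8% and 37.6% of the protein-coding features were. Its direction thus turned in part with the scaling, as that of the ATG genes and of the protein-coding features did.

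A further 9 genes carry an ATG name in the reference but another name in the table and were not members by the rule. Of these 7 were reduced (77.8%, against 74.4% of the protein-coding features), from -2.48 for ATG38, a subunit of the same kinase complex as ATG14, to -0.91 for ATG31, which joins ATG17 and ATG29 in the scaffold. ATG40, a receptor for endoplasmic reticulum, and ATG36, a receptor for peroxisomes, had -0.03 and 0.24 without a call. Together the 28 ATG genes made up between 0.0553% and 0.0707% of all counts of a library, and the 2 fractions overlapped in this share.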

How the data were processed

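RNA bound or not bound by J2 was sequenced in 3 eluate and 3 unbound libraries. The authors aligned reads to sacCer3 with STAR, counted them with featureCounts (Subread 1.5.0-p1) over genes with added UTRs, CUTs, SUTs and XUTs, and normalised the counts with DESeq2 1.24.0 (R 3.6.1). Whether strand was used in counting is not given in the sources used here. The deposited signal is the count divided by a size factor (0.565 to 2.03), and 100% of values came out as whole reads (tolerance 0.01). The table's columns of the authors' own fold changes, p-values and group means were not used.

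Each of the 15753 features was tested in limma 3.58.1 (R 4.3.3; lmFit, eBayes with a trend, two-sided) on log2(normalised count + 1), which understates changes of low features, with Benjamini-Hochberg adjustment over all of them. Calls (adjusted p under 0.05) were counted among features with a mean above 40. Alternatives were other pseudocounts and scalings (TMM, total counts, protein-coding features), DESeq2 1.42.0 and edgeR 4.0.16 on the recovered reads, the replicate block, a narrower adjustment, other partner rules and leaving out each library. The fits were tested on simulated data. The study describes the repeats as biologically independent samples.

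Same-numbered unbound and eluate libraries deviated together from their group means (correlations 0.228, 0.321 and 0.299, against -0.37 to 0.125 for other pairs), so the label numbers were taken to pair them. The main fit had no block, since the study's methods name none.

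The members and lists were chosen with earlier results of these data known. All 28 genes were named. Values per library were given for enriched genes, the 5 lowest, ATG1, ATG8, ATG9, ATG11, and each gene with a partner above 0.1 of its count together with that partner. ATG10, ATG12, ATG34 and PPT2 were added after their values were seen. Coding coordinates came from R64, in which 99.9% of 5502 coding sequences matched the table.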

Additional observations from a re-analysis of the deposited data

How the results depend on the processing

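Each fraction had 3 libraries, which limits the precision, and most turns of sign came with another scaling. The enriched ATG genes numbered 2 with TMM factors, edgeR or the replicate block, 6 with total counts, 10 with protein-coding factors and 0 to 2 without a library, against 1. The reduced ATG genes numbered 13 with total counts, 7 with protein-coding factors and 18 to 21 without a library, against 21. The ATG median was -0.34 with total counts, 0.0628 with protein-coding factors, -1.08 with edgeR and -1.41 to -1.13 without a library. Of the other autophagy genes 5 were enriched and 12 reduced with total counts, and 12 enriched and 9 reduced with protein-coding factors. The shares over the protein-coding features were 21.5% and 48.8% with total counts, and 32.8% and 37.6% with protein-coding factors. Enriched partner lncRNAs numbered 16 (of 27) with no filter on the mean, and stayed between 5 and 10 under every other alternative. The share over all lncRNA features without that filter was not computed.

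Signs turned for 7 ATG genes with total counts, to 0.23 for ATG12, 0.27 for ATG32, 0.12 for ATG17, 0.73 for ATG2, 0.90 for ATG5, 0.17 for ATG29 and 0.32 for ATG13. With protein-coding factors they turned for 11, to 0.63 for ATG12, 0.0599 for ATG18, 0.0657 for ATG1, 0.67 for ATG32, 0.12 for ATG33, 0.52 for ATG17, 1.13 for ATG2, 0.31 for ATG34, 1.30 for ATG5, 0.57 for ATG29 and 0.72 for ATG13. ATG5, near zero, also turned with TMM factors (0.16), DESeq2 (0.0317) and edgeR (0.22), and ATG2 with edgeR (0.00063). Without a library ATG9 ran from -0.11 to 0.18 and ATG5 from -0.17 to 0.28. The turns under another scaling came with the shift of all features, and the cause of the others was not tested. The replicate block made ATG14 (adjusted p = 0.0424) and CUT578 enriched and changed no other call of the 38 genes and partners. The partner antisense1962 lost its call without eluate 1 or eluate 2. Both pseudocounts and the narrower adjustment changed no call of the 38.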
